A study of Mus musculus with 6 samples.

Results

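The genes described here are the 9 histone H3K9 demethylase genes Kdm1a, Kdm3a, Kdm3b, Kdm4a, Kdm4b, Kdm4c, Kdm4d, Kdm7a and Phf8. They were taken by name from a table of 53023 genes, and all 9 were found. They fall into 4 enzyme types, with 1 gene of the KDM1 type, 2 of the KDM3 type, 4 of the KDM4 type and 2 of the KDM7 type. Their mRNA levels were measured by RNA-seq in mouse 2-cell embryos of the ICR strain, collected 28 hours post insemination (hpi). The study asked how an excess of PIASy (gene Pias4), an E3 ligase for the small ubiquitin-like modifier SUMO, affects gene expression at zygotic genome activation. Fertilized oocytes of the PIASy-WT group received mRNA for wild-type PIASy, and those of the PIASy-Mut group received mRNA for PIASy with the RING finger mutation C335F, which removes SUMO ligase activity. Both mRNAs carried an HA tag and were injected into the cytoplasm at 100 ng/µl between 1.5 and 3 hpi, and fluorescent zygotes were chosen at 9 hpi. The non-injection group received no mRNA, so it does not control for the injection itself, and PIASy-Mut does. Each group had 2 libraries, each made from 5 pooled embryos, and all embryos came from in vitro fertilization. As nothing says that the pools came from separate fertilizations, P-values measure the spread between these pools.

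Methylation of lysine 9 on histone H3 marks silent chromatin, and the trimethyl form (H3K9me3) is the hallmark of constitutive heterochromatin. KDM1A removes mono- and dimethyl groups by a flavin-dependent oxidation, whereas the other types use a Jumonji C domain, iron and 2-oxoglutarate. KDM3 and KDM7 enzymes act on mono- and dimethyl H3K9, and KDM4 enzymes are the type that removes the trimethyl group. In early mouse embryos these enzymes work while the maternal and paternal genomes are being reprogrammed, alongside the methyltransferases that write the mark.

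The libraries held 871663 to 1363928 fragments on genes, and PIASy-Mut 2 was the shallowest. Levels are given as FPKM, that is, fragments scaled by the length of the gene and by the size of the library, and are shares of a library. In such pools, fewer cells of a kind and less RNA per cell cannot be told apart. Pias4 stood at 2.98 and 3.59 FPKM without injection, at 862 and 611 under PIASy-Mut, and at 610 and 579 under PIASy-WT, as the labels say. Of 8 oocyte and 2-cell markers all were found, with summed levels of 1182 and 1112 FPKM without injection, 948 and 1709 under PIASy-Mut, and 2018 and 2085 under PIASy-WT. Bmp15 was the largest part of that sum in each library. Without Bmp15 the groups overlapped, with 700 and 651 FPKM without injection, 620 and 965 under PIASy-Mut, and 735 and 607 under PIASy-WT. Of the 8 markers, 1 (Bmp15) had both PIASy-WT values above the other 4 and 2 (Zp3 and Zfp352) had both below, and Zp3 fell by 1.57 on the log2 scale relative to non-injection (adjusted P=0.0292 by limma). Of 10 cumulus and granulosa cell markers 6 had at most 3 fragments in every library and Inhba was at 0 throughout. Their summed level was 10.4 to 12.5 FPKM outside PIASy-WT and 7.97 and 7.40 in PIASy-WT, mostly from Amhr2 and Tnfaip6. Amhr2 fell by 1.86 on the log2 scale relative to non-injection (adjusted P=0.0427 by limma). Tnfaip6 stood at 1.72 and 2.07 FPKM without injection, 2.83 and 5.37 under PIASy-Mut, and 4.85 and 5.09 under PIASy-WT, from 4 to 11 fragments, and was 2.07-fold higher than non-injection on the FPKM + 1 scale (adjusted P=0.154 by limma). Of 4 sperm markers only Prm2 exceeded 3 fragments in any library, and their sum was 1.08 to 5.89 FPKM. The part of these markers in the results below was not tested.

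Of the 9 H3K9 demethylase genes, 1 fell in PIASy-WT relative to non-injection with an adjusted P of 0.05 or less. That gene was Kdm4c, which also fell relative to PIASy-Mut. Called higher by limma were 0 of the 9 in either comparison. At an unadjusted P under 0.05, 3 (Kdm3a, Kdm4a and Kdm4c) were lower and 0 higher against non-injection, where 17.6% of all genes were lower and 10.6% higher. Against PIASy-Mut, 2 (Kdm3a and Kdm4c) were lower and 1 (Phf8) higher at that P, where 18.2% of all genes were lower and 9.46% higher. With all 6 libraries on the log2(FPKM + 1) scale, Kdm4c alone of the 9 reached a log2 fold change of 2 in size. Kdm4a reached it against non-injection in 5 of 17 other settings, namely without non-injection 2 (-2.18), without PIASy-WT 1 (-2.05), with a pseudocount of 0.5 (-2.16) or 0.1 (-2.48) and with voom (-2.51). Among all 16100 genes tested with limma, 5.76% were lower and 1.03% higher in PIASy-WT relative to non-injection, with 6.01% lower and 0.82% higher relative to PIASy-Mut. Read against these shares, a count of 1 in 9 is not a result about the members as a group. The PIASy-WT libraries enter both comparisons, which are thus not independent. Between PIASy-Mut and non-injection 0 of the 9 were called by limma, against 0% of all genes lower and 0.00621% higher, the single gene being Pias4. An unadjusted P under 0.05 was found for 0 of the 9 here, against 2.09% of all genes lower and 2.37% higher.

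**Figure D1:**
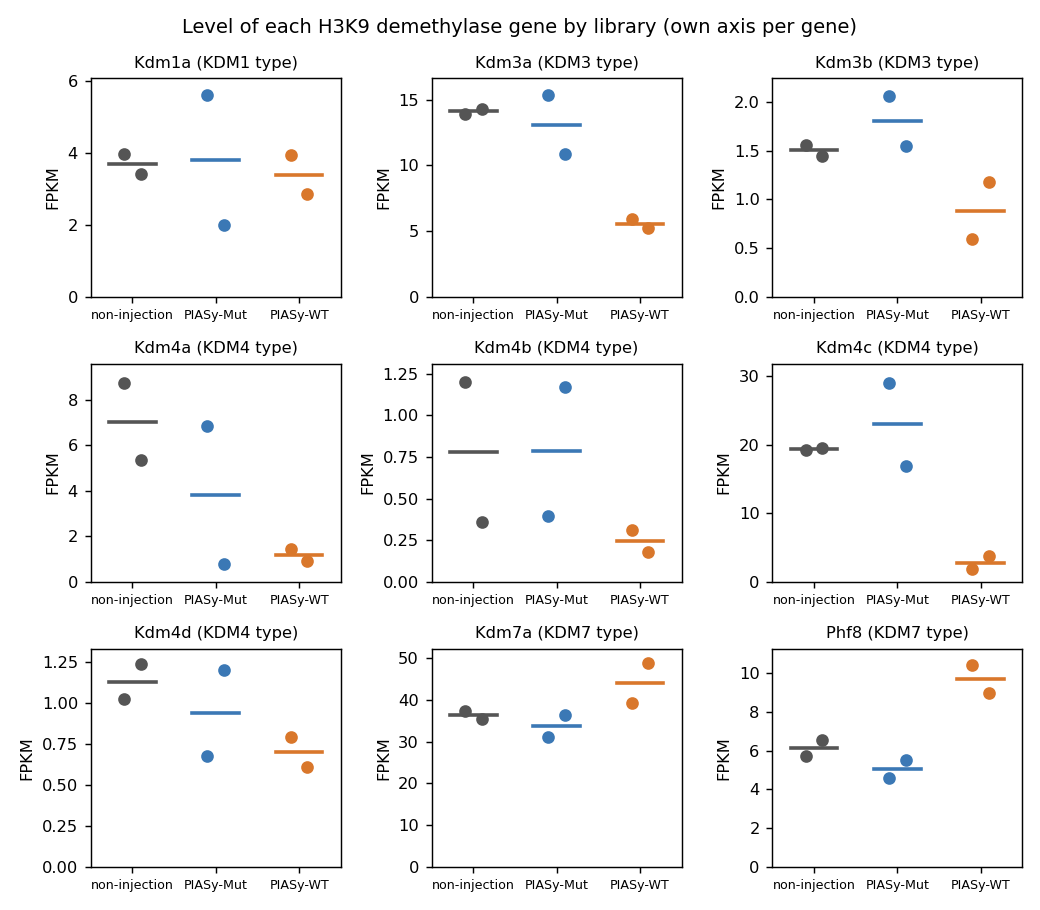
FPKM of each gene (vertical axis, linear from 0, its own scale per gene) in the 3 groups, with 1 point per library and a bar at the group mean. Both PIASy-WT points lie below the other 4 for Kdm3a, Kdm3b, Kdm4b (at most 8 fragments in a library) and Kdm4c and above them for Kdm7a and Phf8.

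Among the KDM4 enzymes, which act on trimethyl H3K9, Kdm4c (ENSMUSG00000028397.13; mm10, chr4:74242497-74405860, plus strand) was the most abundant outside PIASy-WT. Its level was 19.1 and 19.4 FPKM without injection, 28.9 and 16.9 under PIASy-Mut, and 1.81 and 3.74 under PIASy-WT. The PIASy-WT libraries therefore lay well below the lowest of the other 4. These values rest on 152, 128, 174 and 86 fragments in the first 4 libraries and on 14 and 25 in PIASy-WT. Group means were 19.3 ± 0.212 FPKM without injection, 22.9 ± 8.49 under PIASy-Mut and 2.77 ± 1.36 under PIASy-WT (SD, n = 2 libraries each). As a ratio of mean FPKM, Kdm4c was 6.95-fold lower than in non-injection and 8.27-fold lower than in PIASy-Mut. On the log2(FPKM + 1) scale, which understates the change of low genes, the difference from non-injection was -2.47 (SE 0.40; 95% interval -3.46 to -1.49; adjusted P=0.0325 by limma). The difference from PIASy-Mut was -2.67 (SE 0.40; 95% interval -3.65 to -1.69; adjusted P=0.0274 by limma). PIASy-Mut and non-injection differed by 0.19, within the spread between libraries.

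The sign of the Kdm4c difference was the same in all 17 other settings of each comparison, but the call was not. Against non-injection the adjusted P by limma was 0.165 without non-injection 1, 0.198 without non-injection 2, 0.112 without PIASy-WT 1 and 0.127 without PIASy-WT 2, and the difference still lay between -2.85 and -2.10. Against PIASy-Mut it was 0.0724 without non-injection 1, 0.0731 without non-injection 2, 0.0892 without PIASy-Mut 1, 0.0943 without PIASy-WT 1 and 0.116 without PIASy-WT 2. In each of these fits 0 genes of the whole table were called lower by limma, while 1765 to 2641 were lower at an unadjusted P under 0.05. Kdm4c also lost its call in other settings, in part where other genes were called. With no filter on low values its adjusted P by limma was 0.0596 against non-injection, with 154 genes called lower, and 0.0511 against PIASy-Mut, with 243. With no mean-variance trend it was 0.0521 against non-injection, with 256 genes called lower. With only the 4 libraries compared it was 0.117 against PIASy-Mut, with 0 genes called lower and 2554 lower at an unadjusted P under 0.05.

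RefSeq lists 2 start sites for Kdm4c, and a level summed over the gene cannot tell which was used. The 250 bases before each start are shown, with those of Kdm7a and Phf8, because these genes lay at opposite ends of the comparison. The sequences are from GRCm38.p6 (mm10), run 5′ to 3′ on the strand of the gene, and have every CpG in capitals.
Kdm4c, outer start, chr4:74242247-74242496, plus strand: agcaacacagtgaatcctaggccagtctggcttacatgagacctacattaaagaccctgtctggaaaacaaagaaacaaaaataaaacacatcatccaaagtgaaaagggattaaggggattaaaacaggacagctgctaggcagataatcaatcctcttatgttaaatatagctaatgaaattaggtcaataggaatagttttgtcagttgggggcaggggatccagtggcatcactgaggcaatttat
Kdm4c, inner start, chr4:74251629-74251878, plus strand: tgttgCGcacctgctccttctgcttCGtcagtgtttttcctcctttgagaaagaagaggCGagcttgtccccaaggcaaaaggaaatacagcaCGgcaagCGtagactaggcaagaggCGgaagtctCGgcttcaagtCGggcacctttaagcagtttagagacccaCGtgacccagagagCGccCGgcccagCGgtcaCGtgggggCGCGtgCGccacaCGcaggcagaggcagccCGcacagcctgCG
Kdm7a, chr6:39206774-39207023, minus strand: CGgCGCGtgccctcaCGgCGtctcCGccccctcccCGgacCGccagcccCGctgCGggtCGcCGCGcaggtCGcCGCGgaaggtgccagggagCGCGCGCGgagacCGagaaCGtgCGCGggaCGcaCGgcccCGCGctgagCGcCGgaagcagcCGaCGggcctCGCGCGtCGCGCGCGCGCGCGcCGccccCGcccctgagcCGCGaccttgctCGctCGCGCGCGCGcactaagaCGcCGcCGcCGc
Phf8, chrX:151520422-151520671, plus strand: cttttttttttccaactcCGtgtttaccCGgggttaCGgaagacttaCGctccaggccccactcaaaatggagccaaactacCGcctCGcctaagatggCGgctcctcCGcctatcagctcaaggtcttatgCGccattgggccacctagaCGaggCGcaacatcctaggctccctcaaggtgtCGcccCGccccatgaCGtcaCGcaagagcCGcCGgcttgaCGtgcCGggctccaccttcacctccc

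The outer Kdm4c window held 0 CpG and 39.6% G or C, and the inner one 19 CpG and 60.4%. Across 32851 RefSeq promoters of this length the quartiles were 2, 6 and 16 CpG. Kdm7a, with 56 CpG and 82.0% G or C, had more CpG than 99.99% of them, and Phf8 had 19. The letters GGATTA (a homeobox core, searched on both strands) occurred 2 times in the outer Kdm4c window and in no other member's window, against 6.25% of all promoters with at least 1 match. The E-box CACGTG occurred 2 times in the inner Kdm4c window and in no other member's window (6.02% of all promoters). The CCAAT box was found before Phf8, Kdm1a, Kdm4a, Kdm4d and 1 of 3 Kdm3a starts (33.8% of all promoters). The ETS core CCGGAAG was found before Kdm7a, Kdm4d and another Kdm3a start (6.91% of all), and TATAAA before none (12.4% of all). In all, 7 of the 9 genes matched, with 10 starts, and Kdm3b and Kdm4b had no entry. No motif contains another, and these matches describe the letters of each window only.

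Kdm4a (ENSMUSG00000033326.15; mm10, chr4:118136957-118180043, minus strand), a maternal enzyme known to remove H3K9me3, had the largest standard error of the 9 genes (0.73 on the log2 scale). It stood at 8.75 and 5.35 FPKM without injection, 6.87 and 0.794 under PIASy-Mut, and 1.44 and 0.903 under PIASy-WT. PIASy-Mut 2, with 4 fragments, lay below both PIASy-WT libraries, so the groups overlapped. In mean FPKM, PIASy-WT was 6.03-fold lower than non-injection and 3.28-fold lower than PIASy-Mut. The log2 difference from non-injection was -1.87 (95% interval -3.65 to -0.09; adjusted P=0.161 by limma) and that from PIASy-Mut -0.80 (95% interval -2.58 to 0.97; adjusted P=0.512). The second value turned on the PIASy-Mut libraries, and was -1.87 without PIASy-Mut 2 and 0.26 without PIASy-Mut 1. The difference from non-injection passed the test in 3 of 17 other settings, with adjusted P=0.0399 without PIASy-Mut 1, 0.0361 without PIASy-Mut 2 and 0.0428 with voom on the recovered fragments, all by limma. In these settings 12.2%, 12.3% and 11.8% of all genes were called lower, beside 5.76% in the reported test.

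The other KDM4 genes were near the limit of detection. Kdm4b (mm10, chr17:56326062-56402870) was covered by 8 and 2 fragments without injection, 2 and 5 under PIASy-Mut, and 2 and 1 under PIASy-WT. Per fragment on genes, PIASy-WT over non-injection gave a ratio of 0.302 with an exact 95% interval of 0.0535 to 1.17, which covers counting error only. A difference in Kdm4b was thus not detected at this depth. Kdm4d (mm10, chr9:14462548-14500482), which also demethylates H3K9me3 in early embryos, had 2 to 4 fragments in every library. The ratio of PIASy-WT to non-injection was 0.630 with an exact 95% interval of 0.162 to 2.18. Kdm4d is also uncertain because 10.2% of its 50-base stretches occur in the annotated pseudogene Kdm4dl, and only uniquely mapped reads were counted. Kdm4dl itself was covered by more fragments, with 42 and 22 without injection, 18 and 14 under PIASy-Mut, and 25 and 11 under PIASy-WT.

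Both KDM3 genes were lower in each PIASy-WT library than in every other library, and neither passed the test. Kdm3a (ENSMUSG00000053470.13; mm10, chr6:71588972-71632990, minus strand), which acts on mono- and dimethyl H3K9, stood at 13.9 and 14.3 FPKM without injection, 15.3 and 10.9 under PIASy-Mut, and 5.87 and 5.18 under PIASy-WT. PIASy-WT did not overlap the other groups, and the means were 14.1 ± 0.278, 13.1 ± 3.13 and 5.53 ± 0.486 FPKM (SD, n = 2). Kdm3a was 2.55-fold lower in mean FPKM than in non-injection (log2 difference -1.21; SE 0.30; 95% interval -1.95 to -0.47; adjusted P=0.0672 by limma). Against PIASy-Mut it was 2.37-fold lower (log2 difference -1.09; 95% interval -1.84 to -0.35; adjusted P=0.0830 by limma). Neither interval reached 0, and the test over all genes was passed in 5 of 17 other settings against non-injection and in 3 of 17 against PIASy-Mut.

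Its paralogue Kdm3b (ENSMUSG00000038773.11; mm10, chromosome 18, 34777047 to 34838660) was measured at 1.56 and 1.44 FPKM without injection, 2.06 and 1.55 under PIASy-Mut, and 0.589 and 1.17 under PIASy-WT. The log2 difference was -0.43 from non-injection (95% interval -1.40 to 0.55; adjusted P=0.517) and -0.59 from PIASy-Mut (adjusted P=0.395), both by limma. Of its exon bases 24.6% are shared with the opposite-strand lincRNA Gm26538, which was listed at 0 fragments in all libraries, so its level is uncertain where counting did not use the strand.

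The KDM7 genes, which encode a PHD finger beside the Jumonji domain, lay on the other side. Kdm7a (ENSMUSG00000042599.8; mm10, chr6:39136623-39206789, minus strand) was the most abundant of the 9 genes in all 6 libraries. Its level was 37.3 and 35.4 FPKM without injection, 31.1 and 36.4 under PIASy-Mut, and 39.3 and 48.9 under PIASy-WT. PIASy-WT was highest, by a margin smaller than the gap between its own libraries. The log2 difference was 0.26 from non-injection (95% interval -0.35 to 0.87; adjusted P=0.523) and 0.37 from PIASy-Mut (95% interval -0.24 to 0.98; adjusted P=0.391), both by limma.

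Phf8 (ENSMUSG00000041229.15; mm10, chrX:151520672-151633859, plus strand), which also demethylates dimethyl H3K9, stood at 5.74 and 6.55 FPKM without injection, 4.57 and 5.54 under PIASy-Mut, and 10.4 and 8.96 under PIASy-WT. The PIASy-WT libraries lay above the other 4, by a ratio of mean FPKM of 1.58 to non-injection and 1.92 to PIASy-Mut. The log2 difference was 0.58 from non-injection (SE 0.31; 95% interval -0.18 to 1.34; adjusted P=0.273) and 0.82 from PIASy-Mut (95% interval 0.07 to 1.58; adjusted P=0.153), both by limma. Phf8 passed the test in 0 of 17 other settings in each comparison, and its sign was positive in all of them.

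The KDM1 type gene Kdm1a (ENSMUSG00000036940.15; mm10, chr4:136550540-136602723, minus strand) encodes the demethylase of the CoREST complex. It stood at 3.96 and 3.41 FPKM without injection, 5.61 and 1.99 under PIASy-Mut, and 3.93 and 2.86 under PIASy-WT. The groups overlapped, and PIASy-Mut held both the highest and the lowest library. The log2 difference of PIASy-WT was -0.10 from non-injection (95% interval -1.28 to 1.07) and -0.03 from PIASy-Mut (95% interval -1.20 to 1.15), and both signs turned with quantile normalization or median centring. These intervals allow a change of either sign.

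**Figure D2:**
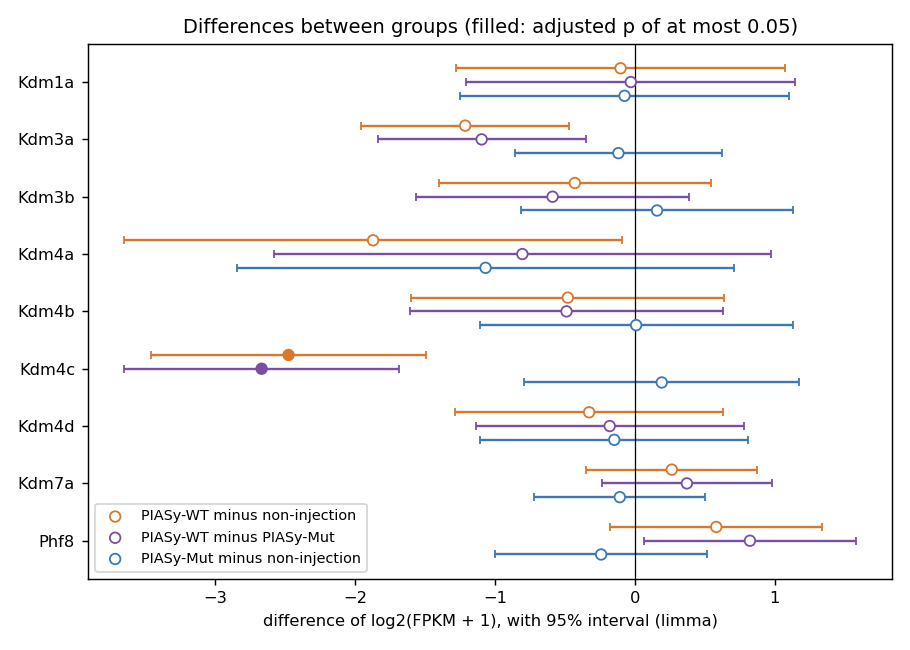
Differences of log2(FPKM + 1) between groups (horizontal axis) for the 9 genes, with 95% intervals from limma; orange is PIASy-WT minus non-injection, purple PIASy-WT minus PIASy-Mut and blue PIASy-Mut minus non-injection. Filled points have an adjusted P of at most 0.05, which holds for Kdm4c in both PIASy-WT comparisons (-2.47 and -2.67) and for no other point.

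Counted by library, 4 of the 9 genes (Kdm3a, Kdm3b, Kdm4b and Kdm4c) had both PIASy-WT values below the other 4, against 24.4% of all genes tested. For Kdm4b this rests on scaling by depth, since PIASy-WT 1, non-injection 2 and PIASy-Mut 1 had 2 fragments each, and without Kdm4b the count was 3 genes. A further 2 of 9 (Kdm7a and Phf8) had both above, against 19.9% of all genes. Kdm1a, Kdm4a and Kdm4d overlapped. The median log2 difference of the 9 genes was -0.43 from non-injection and -0.49 from PIASy-Mut, where the median of all genes tested was 0.01 and -0.03. In each of the PIASy-WT comparisons 7 of the 9 differences were negative, and the positive ones were Kdm7a and Phf8. Kdm1a (both comparisons) and Kdm4d (against PIASy-Mut) turned positive under median centring, and Kdm1a also under quantile normalization. Kdm4b and Kdm4d reached the 1 FPKM of the filter only in libraries outside PIASy-WT. The count and the medians that include them are thus no support for a fall. The share of all genes with a negative difference was not counted. Median centring moved the median of all genes to 0.26 and 0.28, and Kdm4c then differed by -2.22 (adjusted P=0.0448) and -2.35 (adjusted P=0.0419 by limma).

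**Figure D3:**
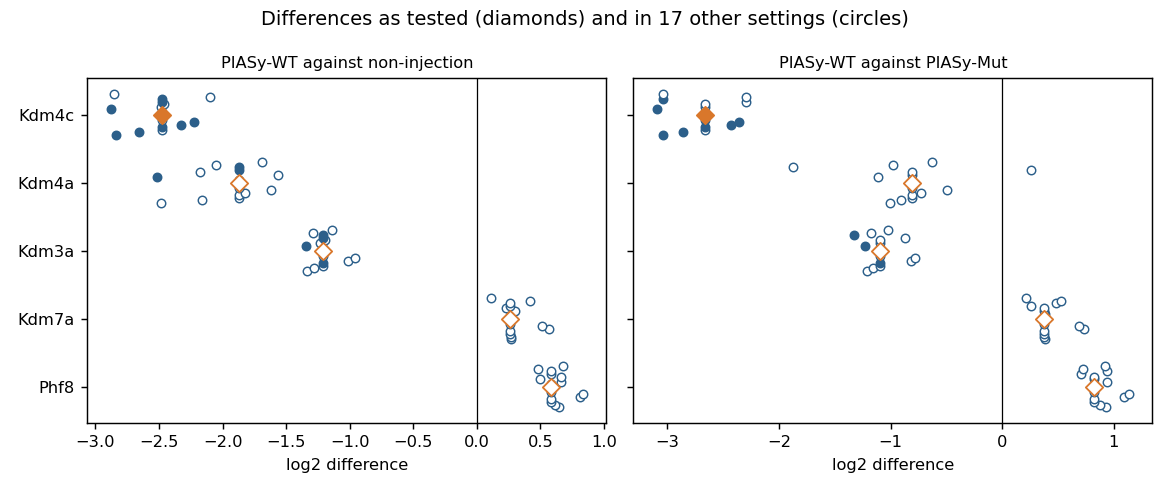
Log2 difference (horizontal axis) of Kdm4c, Kdm4a, Kdm3a, Kdm7a and Phf8 in PIASy-WT against non-injection (left) and against PIASy-Mut (right), as tested (orange diamonds) and in 17 other settings (circles); filled symbols have an adjusted P of at most 0.05. Kdm4c stays between -2.88 and -2.10 on the left and between -3.09 and -2.29 on the right, while Kdm4a on the right runs from -1.87 to 0.26.

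Summed by enzyme type, the KDM4 genes had 30.1 and 26.4 FPKM without injection, 36.9 and 20.1 under PIASy-Mut, and 4.35 and 5.42 under PIASy-WT. Most of that difference came from Kdm4c, which made up 63.6% to 84.2% of the KDM4 sum outside PIASy-WT and 41.7% and 68.9% of it in PIASy-WT. The KDM3 genes had 15.5 and 15.7 FPKM without injection, 17.4 and 12.4 under PIASy-Mut, and 6.46 and 6.36 under PIASy-WT. The KDM7 genes had 43.0 and 42.0, 35.7 and 41.9, and 49.8 and 57.8 FPKM in the same order of groups. These sums were not tested. The KDM4 type thus took 26.3% to 38.6% of the summed FPKM of the 9 genes outside PIASy-WT and 6.74% and 7.48% within it. The KDM7 type took 37.3% to 54.8% outside and 77.1% and 79.8% within. The ratio of KDM7 to KDM4 was 0.967 to 2.08 in the other 4 libraries and 11.4 and 10.7 in PIASy-WT.

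The members outside the KDM4 type, that is the KDM1, KDM3 and KDM7 types together, summed to 56.3 to 62.4 FPKM outside PIASy-WT and to 60.1 and 67.1 within it. Here the groups overlapped, and the sum is set mostly by Kdm7a.

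**Figure D4:**
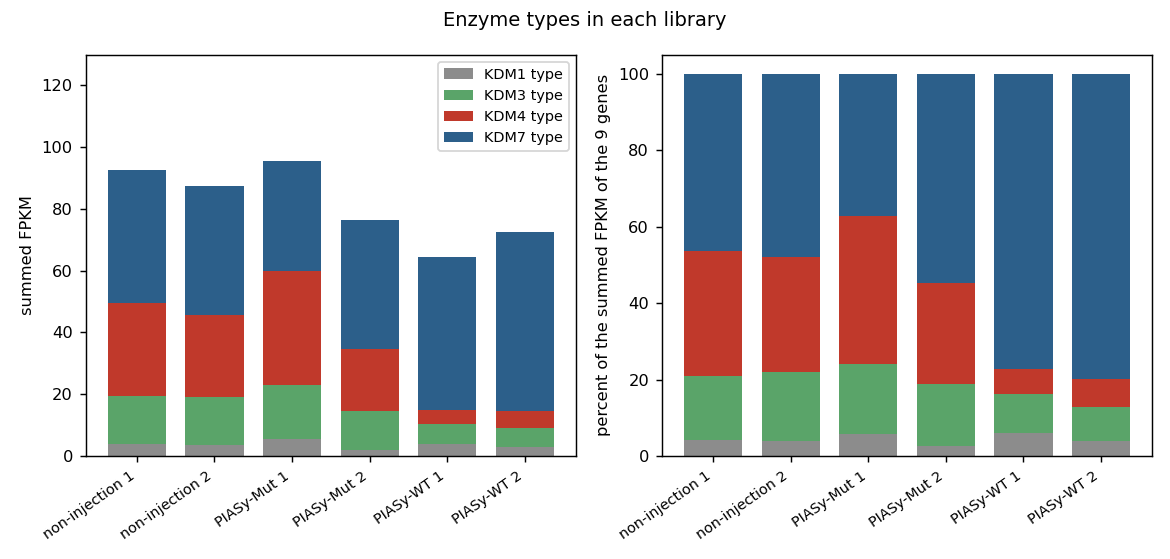
Summed FPKM of the 4 enzyme types in each of the 6 libraries (left, stacked from 0) and the same as a percent of the 9 genes (right). The red KDM4 segment is 26.3% to 38.6% in the 4 libraries without PIASy-WT and 6.74% and 7.48% in those with it.

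The order of the genes by mean level was Kdm7a, Kdm4c and Kdm3a in non-injection and in PIASy-Mut, with no overlap between neighbours among these 3. In PIASy-WT it was Kdm7a, Phf8, Kdm3a and Kdm1a, with Kdm4c in the fifth place and its range overlapping that of Kdm1a. Kdm4a and Phf8 could not be ordered in non-injection or PIASy-Mut, since their libraries overlapped, and likewise Kdm4d and Kdm4b. Across the 6 libraries, Kdm7a and Phf8 had the smallest root mean square difference among the members, 0.248 in centred log2(FPKM + 1). Kdm4c and Phf8 had the largest, 1.60. This measure is also small for genes that vary little. It was 0.311 for Kdm4d and Kdm7a, whose PIASy-WT differences had opposite signs. Among 7029 genes with a mean of at least 5 FPKM, those most like Kdm7a were Ccdc84 (0.0304), Atxn1l (0.0355) and Ttc37 (0.0506). All 3 are named for likeness over 6 libraries only.

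Related genes were read beside the members. Of 4 other H3K9 demethylase relatives, Kdm1b and Jmjd1c could be tested, Phf2 and Hr were too low, and 0 were called by limma, with 0 below an unadjusted P of 0.05. Kdm1b, a KDM1A homologue needed in oocytes, stood at 22.3 and 14.0 FPKM without injection, 6.70 and 13.8 under PIASy-Mut, and 19.8 and 20.4 under PIASy-WT, with overlapping groups.

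Of 11 partners of KDM1A in the CoREST complex 10 were tested, and 1 was lower in each PIASy-WT comparison and 0 higher, where 5.76% and 6.01% of all genes were lower. At an unadjusted P under 0.05 the 10 had 2 lower and 0 higher against non-injection (17.6% and 10.6% of all genes) and 1 lower and 1 higher against PIASy-Mut (18.2% and 9.46%). That gene was Hdac1, a histone deacetylase, at 28.3 and 26.4 FPKM without injection, 31.2 and 24.3 under PIASy-Mut, and 8.76 and 9.34 under PIASy-WT. Its log2 difference was -1.50 from non-injection (adjusted P=0.0356) and -1.51 from PIASy-Mut (adjusted P=0.0342), both by limma. The median of the list was -0.28 from non-injection and -0.09 from PIASy-Mut, beside 0.01 and -0.03 over all genes.

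Of 11 H3K9 methyltransferases, HP1 proteins and Trim28, 0 were called against non-injection and 1 was lower than in PIASy-Mut, where 6.01% of all genes were. At an unadjusted P under 0.05 the 11 had 4 lower and 2 higher against non-injection (17.6% and 10.6% of all genes) and 2 lower and 1 higher against PIASy-Mut (18.2% and 9.46%). The called gene was Trim28, a corepressor that recruits SETDB1, at 9.17 and 8.93 FPKM without injection, 15.8 and 10.2 under PIASy-Mut, and 3.81 and 3.56 under PIASy-WT. It differed by -1.55 from PIASy-Mut (adjusted P=0.0491) and by -1.10 from non-injection (adjusted P=0.0975), both by limma. The median of the list was -0.58 from non-injection and -0.60 from PIASy-Mut (all genes, 0.01 and -0.03).

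Of 8 demethylases of other histone lysines, 1 was lower in each PIASy-WT comparison and 0 higher, where 5.76% and 6.01% of all genes were lower. At an unadjusted P under 0.05, 3 of the 8 were lower and 0 higher in each (17.6% and 18.2% of all genes lower). The called gene was Kdm5b, an H3K4 demethylase, at 13.3 and 17.1 FPKM without injection, 19.96 and 13.1 under PIASy-Mut, and 3.65 and 3.15 under PIASy-WT. It differed by -1.87 from non-injection (adjusted P=0.0358) and by -1.97 from PIASy-Mut (adjusted P=0.0322), both by limma. The list's median was -0.49 from non-injection and -0.78 from PIASy-Mut, set against 0.01 and -0.03 for all genes. Between PIASy-Mut and non-injection limma called 0 genes of these lists, with 0 below an unadjusted P of 0.05.

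**Figure D5:**
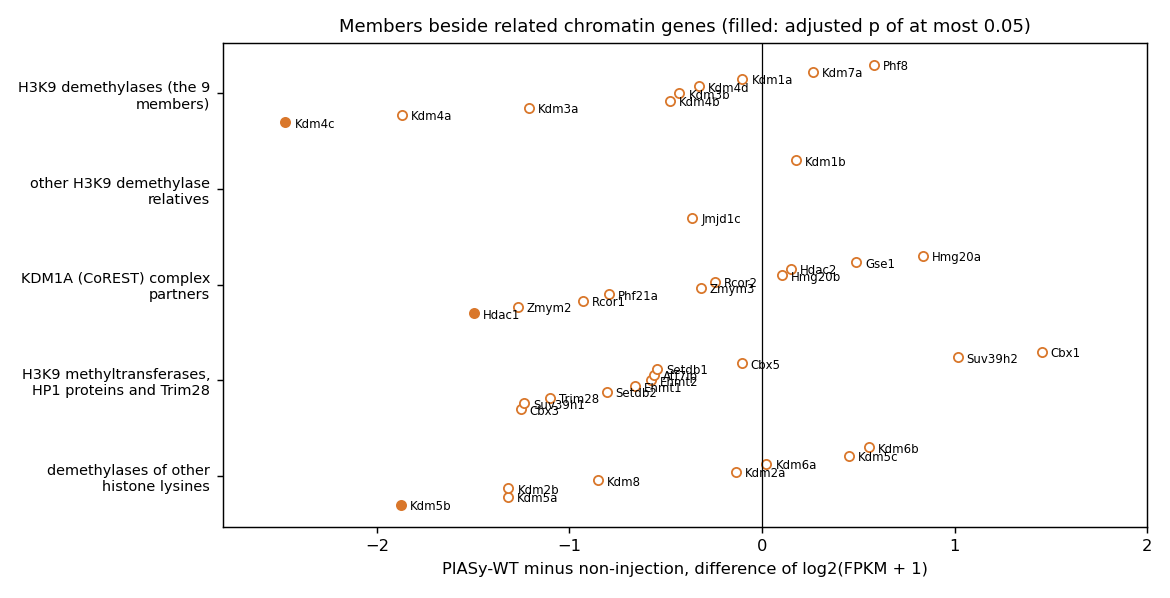
Difference of log2(FPKM + 1) between PIASy-WT and non-injection (horizontal axis) for the 9 members and for each tested gene of the 4 related lists, with filled points at an adjusted P of at most 0.05. Kdm4c (-2.47), Kdm5b (-1.87) and Hdac1 (-1.50) are the filled points.

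Neighbouring transcripts were looked up in the annotation. The antisense RNA A230083N12Rik lies within Kdm4c on the other strand and shares 0 exon bases with it. It was listed at 20.5 and 30.9 FPKM without injection, 20.3 and 18.1 under PIASy-Mut, and 11.9 and 10.6 under PIASy-WT, from at most 20 fragments. Where counting did not use the strand, fragments of unspliced Kdm4c RNA there could not be told from this antisense RNA. Kdm7a shares 287 exon bases, 2.85% of its own, with the antisense RNA 4930599N23Rik, which had at most 3 fragments in any library. Kdm1a, Kdm3a, Kdm4a, Kdm4b, Kdm4c and Phf8 share no stretch of 50 bases with another annotated gene.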

How the data were processed

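RNA-seq was performed by the authors on pools of mouse 2-cell embryos with SMART-Seq v4 and Nextera XT libraries, sequenced as paired ends. Per the study's methods and the submitters' processing notes, reads were trimmed with Trim Galore, aligned to mm10 with STAR and counted, where uniquely mapped, with featureCounts. Tool versions, the annotation release and the strand setting are not given in the sources used here. The authors deposited FPKM values for 53023 genes, without spike-in entries, and all value columns were matched to samples, with 0 unmatched.

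FPKM times gene length gave whole fragments for 100% of values above 0 (within 0.01 fragment), from which depth was taken. At that depth 3 fragments, used as the limit of detection, equal 2.20 to 3.44 CPM. Genes with at least 1 FPKM in at least 2 libraries (16100, all 9 members among them) were tested on log2(FPKM + 1) with limma 3.58.1 in R 4.3.3 (eBayes with trend, all 6 libraries, 3 residual degrees of freedom, no block, Benjamini-Hochberg adjustment over all genes, call at 0.05). The study used DESeq2 on counts, which does not suit FPKM. An exact permutation test of 2 against 2 libraries cannot go below 0.333 and was not used. Tested on simulated data for PIASy-WT against non-injection (15986 genes), the limma test called 166 of 200 genes changed by 3 on the log2 scale, and 34 of its 200 calls (17%) were unchanged genes, above the nominal share. Among genes with a mean of at least 25 simulated fragments per library the limma test called 158 of 181 changed genes and 0 unchanged ones. The simulation gave every gene the same spread beyond counting and drew the changed genes only from those above 25 fragments. It therefore does not give the share of false calls in these data.

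Genes named are all members, the called genes of each related list or otherwise its highest, the injected gene, and the 3 genes most like Kdm7a. Markers, overlapping transcripts and Kdm4dl were named besides, after their values were seen. The members and lists were chosen with earlier results of these data known. Promoters came from RefSeq (GRCm38.p6) and overlaps from GENCODE (mm10). Alternatives changed the pseudocount, filter, scaling, variance model, libraries and test.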

Additional observations from a re-analysis of the deposited data

How the results depend on the processing

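The number of the 9 genes called (1 in each PIASy-WT comparison) was sensitive to the setting, always with lower levels in PIASy-WT. Against non-injection it was 0 with no filter on low values (0.553% of all genes lower) and with no mean-variance trend (1.59%), 2 with a filter at 5 FPKM (17.4%, 5 of the 9 tested) and with only the 4 libraries compared (9.71%), and 3 with voom on the recovered fragments (11.8%), beside 5.76% as reported. Against PIASy-Mut it was 0 with no filter (0.873%) and with only the 4 libraries compared (0%), and 2 with the filter at 5 FPKM (17.9%, 5 of the 9 tested) and with voom (11.7%), beside 6.01%. Leaving out 1 library at a time gave 0 to 3 genes against non-injection and 0 to 2 against PIASy-Mut. The former was 0 without non-injection 1, non-injection 2, PIASy-WT 1 or PIASy-WT 2 (0% of all genes lower in each) and 3 without PIASy-Mut 1 (12.2%) or PIASy-Mut 2 (12.3%). The latter was 0 without any 1 library other than PIASy-Mut 2 (0%), and 2 without that library (13.2%). Without non-injection 1 or PIASy-Mut 2, 8 of the 9 were tested. A group left with 1 library was assumed to vary like the others. Between PIASy-Mut and non-injection 0 were called in all 17 alternatives. The cause of these changes was not tested.

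With the replicate number as a block the counts were 1, 1 and 0, as without it. Deviations of same-numbered libraries correlated by 0.0037, 0.0851 and 0.0637, so the numbers were not taken as pairs. Of 441 single-gene values under alternatives, 417 kept their side of the threshold, 13 lost the call, 11 gained it and 0 called values changed sign. Over all genes, calls against non-injection were 928 lower and 166 higher, but 569 and 250 after median centring and 699 and 233 after quantile normalization. Against PIASy-Mut they were 968 and 132, and then 446 and 168, and 490 and 124. With only the 4 libraries compared, calls were 1563 lower and 730 higher against non-injection and 0 and 0 against PIASy-Mut, where 2554 lower and 1222 higher had an unadjusted P under 0.05. Depth limits Kdm4b and Kdm4d, with at most 8 fragments in a library.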
